A study of Mus musculus with 25 samples.

Results

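Fibroblast growth factors (FGFs) and the receptors they act through were followed in the epididymal (eWAT) and inguinal (iWAT) white fat of mice. The 10 genes, the 7 ligands Fgf1, Fgf2, Fgf7, Fgf9, Fgf10, Fgf13 and Fgf21, the receptors Fgfr1 and Fgfr2 and the co-receptor Klb, were found by symbol among the 54752 gene rows of each count table. The study asked what loss of Acod1, whose enzyme makes itaconate in the mitochondria, changes in mice that become obese on a high-fat diet (HFD). All mice were male and on the C57BL/6N background, and diets began at 5 weeks of age. In eWAT, 4 libraries came from wild type mice on a normal diet (ND), 5 from HFD-fed wild type mice and 5 from HFD-fed Acod1-/- mice, all after 16 weeks. In iWAT the same groups held 3, 5 and 3 libraries, and for Acod1-/- libraries 2 and 3 of that depot the labels give 17 and 18 weeks. The Acod1-/- mice lack the gene in every cell, and the wild type mice were their littermates. No Acod1-/- mice on ND were analysed here, so an effect of genotype was measured on HFD alone. The sources used here do not say whether eWAT and iWAT of one mouse were both sequenced, and libraries were treated as separate mice.

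FGFs are secreted proteins that bind receptor tyrosine kinases on the cell surface. Fgf1, Fgf2, Fgf7, Fgf9 and Fgf10 act locally, held by heparan sulphate chains, whereas Fgf21 circulates as a hormone and needs beta-Klotho, the product of Klb, beside Fgfr1 to signal. Fgf7 and Fgf10 are made by mesenchymal cells and act on the IIIb splice form of Fgfr2, which is found mainly on epithelia. Fgf13 belongs to the intracellular FGFs, which are not secreted and bind voltage-gated sodium channels and microtubules. In fat, Fgf1 is known as a gene of adipocytes that is induced by feeding and HFD, and Fgf10 as a factor needed for fat to form. Fgf2 is known as a growth factor of vessels and precursor cells there, and Fgfr1 with Klb as the route by which Fgf21 acts on adipocytes.

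On GRCm38, the build of the deposited files, all 10 are protein-coding genes, and reads were counted per gene, not per transcript. Fgf1 lies on the minus strand at chr18:38838673-38929472, Fgf2 on the plus strand at chr3:37348346-37410108 and Fgf7 on the plus strand at chr2:126034658-126091185. Fgf9 (chr14:58070547-58112720) and Fgf10 (chr13:118669791-118792115) are on the plus strand, and Fgf13 (chrX:59062145-59568071) and Fgf21 (chr7:45613886-45615490) on the minus strand. Fgfr1 lies at chr8:25513654-25575718 and Klb at chr5:65348314-65384007, both on the plus strand, and Fgfr2 on the minus strand at chr7:130162451-133123350. The last of these models spans 69 other annotated genes. Fgf10 and Fgfr1 share 123 and 164 exonic bases with annotated genes on the other strand, and Fgf1, Fgf7, Fgf9, Fgf13, Fgf21 and Klb share none with another gene.

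The 25 libraries held 31405063 to 52335623 reads on genes. Levels below are TMM-normalised read counts scaled to the library size (CPM), listed in the order of the replicate numbers. Log2 fold changes (log2FC) are given ± SE, and calls are at an adjusted p under 0.1 in edgeR's quasi-likelihood test over all genes. The deleted gene itself was near the floor in all groups (at most 9 counts in a library) and does not check the genotype labels (Acod1-/- against wild type on HFD, two-sided exact permutation p = 0.484 in eWAT and 0.571 in iWAT). Adipocyte markers were abundant in every group, the sum over 10 of them running from 20322 CPM to 52448 CPM. Genes of other tissues were present unequally. In eWAT, 10 epididymis genes summed to 9836 CPM in ND-fed library 2 and to at most 1343 CPM elsewhere, the latter in Acod1-/- library 5. Acod1-/- libraries 1 to 4 held 278, 1.42, 41.2 and 6.89 CPM. Of 9 tested, 3 were lower with HFD, against 26.9% of all genes, and 3 higher in Acod1-/- mice, against 9.13%. The latter 3 averaged 15.5 ± 34.45 CPM (Lcn8), 8.36 ± 18.6 CPM (Cst11) and 12.7 ± 28.5 CPM (Lcn9) there (SD, n = 5). With an SD above the mean, these genotype calls rest on few libraries. In iWAT, 8 skeletal muscle genes, 7 of them called lower with HFD, summed to 8654 CPM in ND-fed library 1. In ND-fed libraries 2 and 3 they summed to 5.66 CPM and 332 CPM, against 28.6 to 425 CPM in HFD-fed wild type iWAT. There 10 lymphocyte genes summed to 766 to 1213 CPM in ND-fed iWAT against 5.73 to 95.6 CPM in HFD-fed wild type iWAT, all 10 being called lower. For all of these marker counts, HFD raised 24.8% and lowered 26.9% of all genes in eWAT, and raised 25.9% and lowered 24.2% in iWAT. Of 8 endothelial genes 6 fell with HFD in eWAT and 6 rose in iWAT. Of 10 adipocyte genes 1 rose and 5 fell in eWAT, and 4 rose and 2 fell in iWAT. Of 8 nerve and glia genes 4 were tested in eWAT, where 2 rose and 2 fell, and 2 of 8 fell in iWAT, close to the share of all genes. Macrophage genes rose with HFD in eWAT (9 of 10, with 1 lower) and iWAT (7 of 10). The part of these cells in the diet effects on FGF genes was not tested. The library numbers in the file headers fall into 2 ranges, and the second holds all 7 ND-fed libraries but only the libraries numbered 5 of the HFD-fed groups of eWAT, library 5 of HFD-fed wild type iWAT and library 3 of Acod1-/- iWAT. Diet was therefore largely tied to the number range, and fits with the range as a term are given where they end a call. These are bulk samples, in which fewer cells of a type and less RNA per cell cannot be told apart.

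Compared per transcript length, as the deposited FPKM values allow, the ligands and receptors differed widely in level. In ND-fed eWAT the highest was Fgfr1, at 23.2 ± 1.13 FPKM (SD, n = 4), followed by Fgf10 at 19.1 ± 3.66 FPKM and Fgf1 at 11.9 ± 4.33 FPKM, and the lowest was Fgf21 at 0.108 ± 0.0842 FPKM. The ranges of Fgfr1 and Fgf10 over the libraries overlapped, as did those of Fgf10 and Fgf1, and neither of these pairs was tested for a difference. After HFD, Fgf13 ranked first in wild type eWAT with 26.5 ± 4.18 FPKM (SD, n = 5), overlapping Fgf1 at 22.5 ± 4.07 FPKM. Fgfr2 came last at 0.538 ± 0.138 FPKM, below every value of Fgf9, the gene next above it (1.08 ± 0.276 FPKM). In ND-fed iWAT, Fgf10 (19.05 ± 4.82 FPKM, SD, n = 3) and Fgfr1 (17.7 ± 2.98 FPKM) overlapped at the top. Fgf9 was lowest at 0.0443 ± 0.0218 FPKM, below every value of the gene next above it, Fgf21 (0.436 ± 0.0930 FPKM). In HFD-fed wild type iWAT, Fgf13 led at 32.7 ± 4.04 FPKM (SD, n = 5), above every library's value of Fgf10, the next gene. Klb ranked between place 3 and place 6 in every group, with means between 4.20 ± 1.18 FPKM in HFD-fed wild type eWAT and 8.05 ± 1.43 FPKM in ND-fed iWAT. In Acod1-/- mice on HFD, Fgf1 ranked first in eWAT at 19.7 ± 5.92 FPKM (SD, n = 5) and Fgf10 in iWAT at 18.3 ± 3.47 FPKM (SD, n = 3), each overlapping Fgf13 below it. FPKM counts all transcripts of a gene together, so splice forms such as those of Fgfr2 were not told apart.

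**Figure D1:**
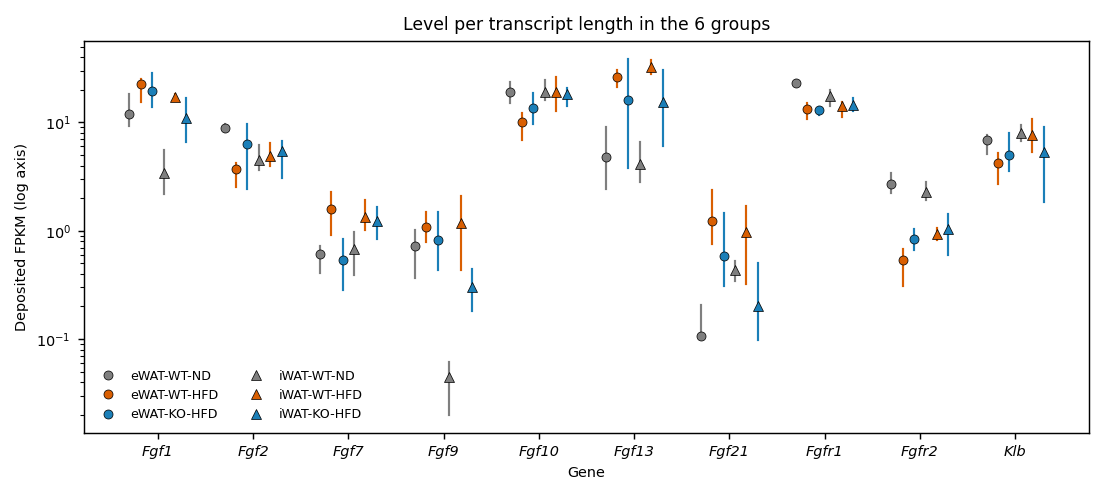
Deposited FPKM of the 10 FGF genes on a log axis, with circles for eWAT and triangles for iWAT marking the mean of each group (n = 3 to 5) and lines running from the lowest to the highest library above 0. Fgf1 and Fgf13 are higher in HFD-fed than in ND-fed wild type mice in both depots, and Fgf9 of ND-fed iWAT sits alone at the bottom, near 0.0443 ± 0.0218 FPKM.

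Promoter windows, from 250 bases before to 50 bases after the annotated start, were read from RefSeq on GRCm38.p6 for 8 of the 10 genes. Those of 5 genes that the comparisons below turn on are printed 5′ to 3′ in lower case. Capitals mark matches, on either strand, to the TATA box TATAAA, the CCAAT box CCAAT, the GC box GGGCGG, the E-box CACGTG, the cAMP response element TGACGTCA, the AP-1 site TGANTCA and the nuclear receptor half-site AGGTCA. For Fgf13, with 4 annotated starts, the window at the start nearest the 5′ end of the GENCODE gene model is shown, and the counts do not say which start was used.
Fgf7 (chr2:126034408-126034707, plus strand): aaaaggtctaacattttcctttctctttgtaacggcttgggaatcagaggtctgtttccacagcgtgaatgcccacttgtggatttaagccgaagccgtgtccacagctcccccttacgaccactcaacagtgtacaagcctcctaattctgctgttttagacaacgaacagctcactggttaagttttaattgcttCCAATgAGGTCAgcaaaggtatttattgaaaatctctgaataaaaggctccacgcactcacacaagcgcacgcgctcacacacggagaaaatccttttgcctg
Fgf9 (chr14:58072436-58072735, plus strand): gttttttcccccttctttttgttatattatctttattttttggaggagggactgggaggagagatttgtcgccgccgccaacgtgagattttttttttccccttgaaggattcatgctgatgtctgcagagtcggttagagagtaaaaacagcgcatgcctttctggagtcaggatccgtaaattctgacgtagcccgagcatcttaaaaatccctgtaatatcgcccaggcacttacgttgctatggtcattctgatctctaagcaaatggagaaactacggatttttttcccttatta
Fgf13 (chrX:59567299-59567598, minus strand): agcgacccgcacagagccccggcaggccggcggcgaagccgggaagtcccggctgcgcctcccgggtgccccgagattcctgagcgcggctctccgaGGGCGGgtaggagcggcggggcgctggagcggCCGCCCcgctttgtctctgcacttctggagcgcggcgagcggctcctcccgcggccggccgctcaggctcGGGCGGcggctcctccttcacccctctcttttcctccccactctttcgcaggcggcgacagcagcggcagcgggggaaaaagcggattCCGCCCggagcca
Fgf21 (chr7:45615441-45615740, minus strand): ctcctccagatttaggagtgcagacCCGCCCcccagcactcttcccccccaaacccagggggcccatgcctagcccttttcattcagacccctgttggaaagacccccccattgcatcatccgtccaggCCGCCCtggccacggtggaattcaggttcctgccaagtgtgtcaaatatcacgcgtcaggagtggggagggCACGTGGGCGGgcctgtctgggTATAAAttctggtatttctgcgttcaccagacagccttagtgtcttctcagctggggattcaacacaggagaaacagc
Fgfr2 (chr7:130266759-130267058, minus strand): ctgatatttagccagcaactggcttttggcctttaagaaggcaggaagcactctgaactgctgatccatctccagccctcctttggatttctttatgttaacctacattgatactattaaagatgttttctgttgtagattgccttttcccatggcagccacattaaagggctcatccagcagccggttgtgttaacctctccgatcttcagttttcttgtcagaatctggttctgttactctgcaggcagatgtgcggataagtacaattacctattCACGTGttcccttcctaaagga
The windows differed in composition. G and C made up 42.7% of the Fgf9 window and 74.3% of that of Fgf13, against a median of 52.7% over 32851 RefSeq windows of this length, and the Fgf13 window held 40 CpG dinucleotides against a median of 7. The Fgf13 window had 4 GC boxes, which 35.7% of all windows hold at least once. The Fgf21 window had a TATA box 28 bases before the start, a match found in 13.6% of all windows, 3 GC boxes, and an E-box (7.15% of all windows) that shares bases with one of them. The Fgf7 window held a CCAAT box (37.4% of all windows) 53 bases before the start and, next to it, a nuclear receptor half-site (16.3%), and that of Fgfr2 an E-box after the start. None of these letters occurred in the Fgf9 window, no printed window held the AP-1 site (7.81% of all windows) or the cAMP response element (1.79%), and these matches are descriptions of sequence, not sites of binding.

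HFD moved most FGF genes of wild type eWAT, and in both directions. Of the 9 genes that passed the filter of a mean of 1 CPM, 8 were called, against 51.8% of the 14936 genes tested. Fgf1, Fgf7 and Fgf13 rose (3 of 9, against 24.8% of all genes) and Fgf2, Fgf10, Fgfr1, Fgfr2 and Klb fell (5 of 9, against 26.9%). The groups did not overlap for 6 of the 9, against 35.2% of all genes. In iWAT, 5 of 9 were called, close to the 50.1% of all 14801 genes: Fgf1, Fgf7, Fgf9 and Fgf13 rose (4 of 9, against 25.9%) and Fgfr2 fell (1 of 9, against 24.2%). These 5 were also the genes whose iWAT groups did not overlap, as was the case for 47.1% of all genes. Fgf1, Fgf7 and Fgf13 were thus called higher, and Fgfr2 lower, in both depots.

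**Figure D2:**
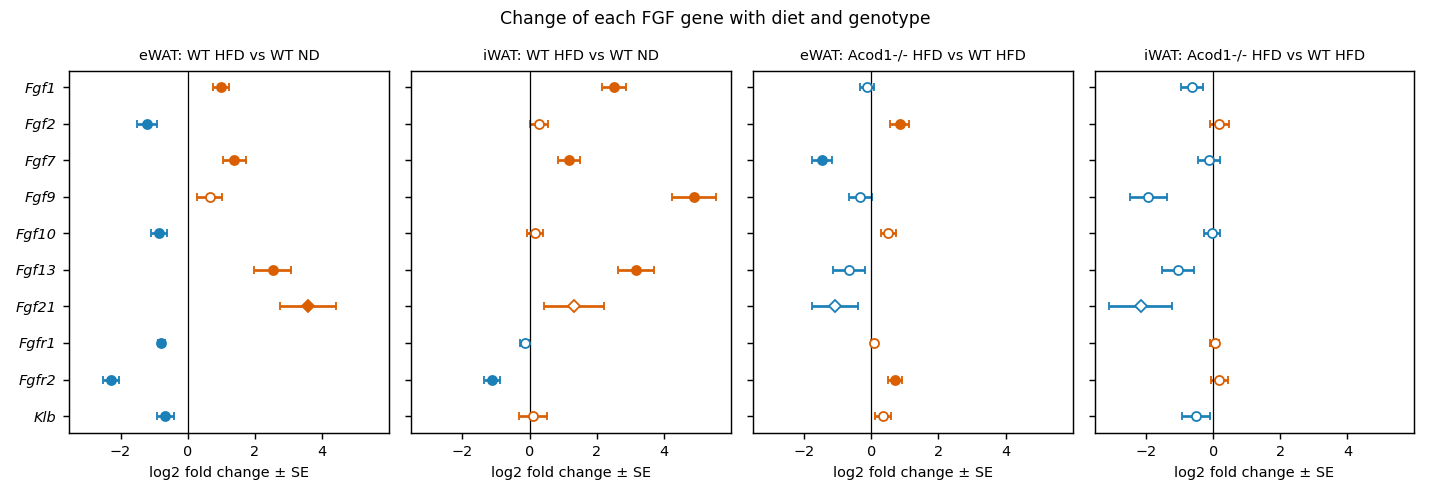
Log2 fold change ± SE of each FGF gene (rows) in the 4 comparisons within a depot, positive values being higher in the group named first. Filled marks were called at an adjusted p under 0.1, open marks were not, and Fgf21 (diamonds) was fitted with genes of any count. The left-hand panels show Fgf1, Fgf7 and Fgf13 to the right and Fgfr2 to the left of 0 in both depots, and the panel of iWAT genotype has no filled mark.

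Fgf13, the intracellular member, had the largest rise in eWAT among the ligands past the filter. It measured 33.4, 8.93, 19.7 and 11.9 CPM in ND-fed and 79.2, 114, 119.7, 94.1 and 124 CPM in HFD-fed wild type mice, every HFD library lying above every ND library. The fitted difference in eWAT was 5.76-fold (log2FC 2.53 ± 0.54, adjusted p = 0.00301). In iWAT the values were 23.8, 10.2 and 11.4 CPM on ND and 119.7, 135, 147, 158 and 110.1 CPM on HFD, again apart, for a 9.06-fold difference (log2FC 3.18 ± 0.54, adjusted p = 0.00108). The diet effect on Fgf13 was not shown to differ between depots (interaction, log2 -0.62 ± 0.74, 95% interval -2.06 to 0.82, adjusted p = 0.591).

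Fgf1, the acidic FGF, rose in both depots from unequal starting levels. ND-fed eWAT held 78.5, 43.7, 44.2 and 45.8 CPM and HFD-fed wild type eWAT 65.6, 107, 118, 120.2 and 112 CPM. The highest ND library lay above the lowest HFD library, both numbered 1, and the other libraries were apart, for a 1.97-fold difference (log2FC 0.98 ± 0.24, adjusted p = 0.00574). In iWAT the values were 22.96, 9.06 and 12.02 CPM on ND, and on HFD a narrow 76.4, 80.1, 79.1, 86.98 and 84.4 CPM. There the groups were far apart and the difference was 5.68-fold (log2FC 2.51 ± 0.36, adjusted p = 0.000451). The diet effect was larger in iWAT, with an interaction of -1.49 ± 0.41 on the log2 scale (SE, adjusted p = 0.0120).

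Fgf9, a ligand known from mesothelial and mesenchymal tissues, was almost absent from ND-fed iWAT. Its counts there were 11, 11 and 4, or 0.259, 0.215 and 0.0911 CPM, not far above a floor of 3 counts per library. HFD-fed wild type iWAT held 6.62, 10.2, 3.83, 5.29 and 1.97 CPM, all above the ND libraries, and the fitted difference was 29.8-fold (log2FC 4.90 ± 0.66, adjusted p = 0.000343, 95% interval 3.60 to 6.20). Since Fgf9 passed the filter in iWAT through the HFD-fed libraries, and its ND level rests on so few counts, the size of this fold change is less certain than its direction. In eWAT Fgf9 was already present on ND, at 3.93, 4.30, 2.73 and 1.74 CPM, and measured 4.97, 3.42, 4.42, 4.87 and 7.28 CPM on HFD, with overlapping groups and no call (log2FC 0.65 ± 0.37, adjusted p = 0.161). The difference between depots in the diet effect was called (-4.22 ± 0.69, adjusted p = 0.000198), and its size has the same limit. Mesothelial markers, summed over the list, went from 36.3 to 49.8 CPM on ND to 64.9 to 90.9 CPM on HFD in wild type iWAT. Only Cldn15, which made up nearly all of that sum, could be tested there, and it rose (log2FC 1.02 ± 0.15, adjusted p = 0.000574), while the defining Msln was at most 0.0501 CPM in these libraries. The part of these cells in the Fgf9 values was not tested.

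Fgf7, or keratinocyte growth factor, was a gene of low level that rose in both depots. It measured 2.15, 2.04, 1.36 and 2.15 CPM in ND-fed and 4.55, 6.91, 4.76, 5.96 and 3.06 CPM in HFD-fed wild type eWAT, without overlap (2.62-fold higher, log2FC 1.39 ± 0.33, adjusted p = 0.00535). In iWAT the values were 2.80, 2.01 and 1.25 CPM on ND and 4.14, 3.53, 4.10, 6.47 and 3.99 CPM on HFD, also apart (2.26-fold higher, log2FC 1.17 ± 0.34, adjusted p = 0.0182). The iWAT call was lost with the library number range as a term (log2FC 0.86 ± 0.42, adjusted p = 0.148). Progenitor markers moved with it: 7 of 10 rose with HFD in eWAT, against 24.8% of all genes. They summed there to 1286 to 1753 CPM on ND and 2153 to 3665 CPM on HFD. In iWAT 8 of 10 rose and 1 fell, against 25.9% and 24.2% of all genes (647 to 1039 CPM and 1523 to 2680.0 CPM). The part of progenitors in the Fgf7 values was not tested.

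Fgf2 and Fgf10 fell in eWAT and were not called in iWAT, and for both the difference between depots was called. Fgf2, the basic FGF, measured 60.4, 50.2, 64.3 and 57.8 CPM in ND-fed and 24.9, 23.7, 29.1, 17.9 and 30.1 CPM in HFD-fed wild type eWAT, a 2.31-fold lower level with no overlap (log2FC -1.21 ± 0.29, adjusted p = 0.00554). The iWAT groups overlapped, with 37.5, 22.8 and 24.2 CPM on ND and 35.7, 29.4, 32.05, 27.7 and 42.9 CPM on HFD (log2FC 0.29 ± 0.27, adjusted p = 0.419). The interaction was -1.46 ± 0.43 (adjusted p = 0.0180). Fgf2 shares 640 of its 6782 exonic bases with Nudt6 on the other strand, and the strand setting of the counting is not given in the sources used here. Nudt6 itself measured 8.02 ± 0.945 CPM in ND-fed and 7.98 ± 1.52 CPM in HFD-fed wild type eWAT (SD, n = 4 and 5).

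Fgf10, the mesenchymal ligand of the IIIb form of Fgfr2, was 76.9, 63.2, 90.8 and 112 CPM in ND-fed eWAT. After HFD it was 28.99, 48.8, 58.6, 54.2 and 43.9 CPM, every library lying below every ND library (1.83-fold lower, log2FC -0.87 ± 0.24, adjusted p = 0.0117). In iWAT the groups overlapped, 67.1 to 101 CPM on ND and 57.9 to 124 CPM on HFD (log2FC 0.17 ± 0.24, adjusted p = 0.594). The interaction was -1.01 ± 0.36 with an adjusted p of 0.0497. This call was lost when ND-fed eWAT library 4 (log2FC -0.84 ± 0.36, adjusted p = 0.111) was left out, and likewise when ND-fed iWAT library 2 (log2FC -0.89 ± 0.40, adjusted p = 0.147) or library 3 (log2FC -0.95 ± 0.40, adjusted p = 0.110) was.

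Fgf21, the hormone of the family, which is known mainly from liver, did not reach the filter of 1 CPM in either depot and was fitted without it. Its counts in ND-fed eWAT were 10, 5, 0 and 6, where a count of 0 allows up to 0.0758 CPM, and in HFD-fed wild type eWAT they were 28, 33, 49, 42 and 118. In CPM these were 0.180, 0.0911, 0 and 0.117 against 0.663, 0.689, 1.12, 1.09 and 2.38, so that all HFD libraries lay above all ND libraries (log2FC 3.58 ± 0.84, adjusted p = 0.00749). ND-fed iWAT held more, 0.447, 0.293 and 0.410 CPM, and overlapped with HFD-fed wild type iWAT at 0.301, 0.766, 1.06, 0.935 and 1.59 CPM (log2FC 1.31 ± 0.89, adjusted p = 0.335). The interaction missed the threshold (2.25 ± 1.18, adjusted p = 0.301), and with so few counts only large differences were detectable.

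**Figure D3:**
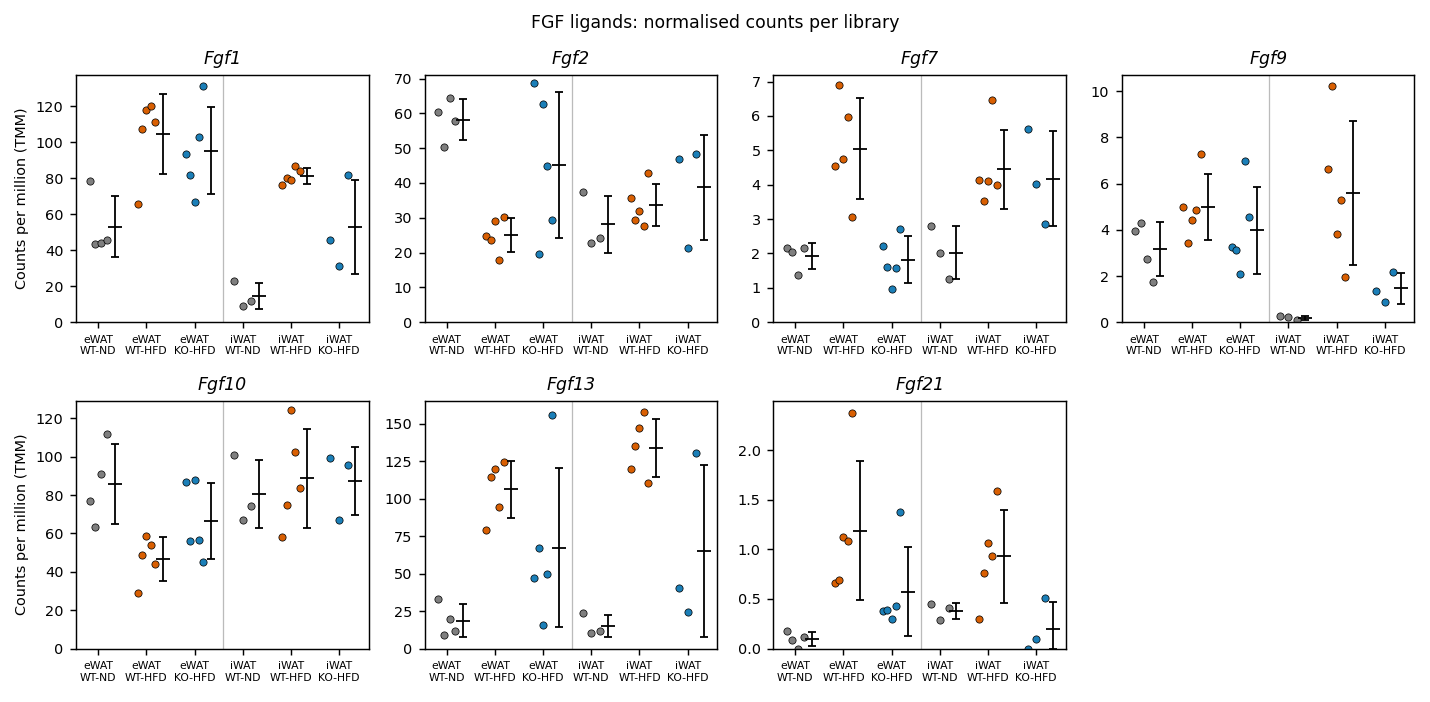
Levels in CPM (linear axes, TMM-normalised) of the 7 ligands in each of the 25 libraries, one point per library, with the mean ± SD of each group as a dash and bar beside the points. Fgf9 of ND-fed iWAT lies near 0, and for Fgf13 one Acod1-/- library of each depot (eWAT library 5 and iWAT library 3) stands with or above the HFD-fed wild type libraries.

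On the receptor side all 3 genes fell with HFD in eWAT. Fgfr2 fell furthest, from 21.1, 32.2, 26.3 and 29.4 CPM on ND to 2.96, 5.24, 5.98, 7.21 and 6.53 CPM on HFD in wild type mice, a 4.87-fold lower level in groups far apart (log2FC -2.28 ± 0.23, adjusted p = 0.000106). In iWAT it measured 17.8, 26.2 and 20.9 CPM on ND and 10.7, 9.02, 10.2, 10.2 and 8.49 CPM on HFD, apart as well (2.18-fold lower, log2FC -1.12 ± 0.24, adjusted p = 0.00361). The eWAT effect was the larger (interaction -1.13 ± 0.35, adjusted p = 0.0228). Epithelial markers moved the same way, 8 of 9 tested falling in eWAT, against 26.9% of all genes. There 10 of them summed to 80.7, 452, 40.04 and 75.7 CPM on ND and 6.54 to 31.8 CPM on HFD. Some varied widely on ND, as Cdh1 at 20.3 ± 31.1 CPM did (SD, n = 4), against 0.501 ± 0.774 CPM on HFD. High ND values helped such genes to pass the filter, and their count is a description. In iWAT 4 of 8 fell, against 24.2% of all genes, and the sums overlapped (9.21 to 71.9 CPM and 4.53 to 12.8 CPM). Without library 2 of ND-fed eWAT, the one with the epididymis genes, the Fgfr2 change was close to that with all libraries (log2FC -2.19 ± 0.25, adjusted p = 0.000526). Of the defining epithelial markers, Krt5 was at 0 in all 5 HFD-fed wild type eWAT libraries. The part of epithelial cells in the Fgfr2 values was not tested. The Fgfr2 gene model reaches as far as Ctbp2, with which it shares 314 of 10328 exonic bases on the same strand.

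Fgfr1, the main FGF receptor of adipocytes, measured 212, 205, 250.2 and 224 CPM in ND-fed and 131, 139.7, 110.3, 116 and 148 CPM in HFD-fed wild type eWAT, a 1.72-fold lower level with no overlap (log2FC -0.78 ± 0.10, adjusted p = 0.000282). The corresponding iWAT values, 175, 168 and 139 CPM and 145, 118, 143, 153 and 150.5 CPM, overlapped (log2FC -0.14 ± 0.14, adjusted p = 0.426). The depots differed in the diet effect (-0.61 ± 0.16, adjusted p = 0.00927). Klb, encoding the co-receptor for Fgf21, measured 32.2, 29.7, 23.9 and 35.5 CPM on ND and 11.3, 20.97, 14.8, 24.3 and 23.9 CPM on HFD in wild type eWAT, where the lowest ND library lay below the 2 highest HFD libraries (log2FC -0.67 ± 0.25, adjusted p = 0.0448). This call was lost with the library number range as a term (log2FC -0.19 ± 0.30, adjusted p = 0.661) and without ND-fed library 4 (log2FC -0.59 ± 0.28, adjusted p = 0.112). In iWAT, Klb spread widely, 30.1 to 38.7 CPM on ND and 24.04 to 50.8 CPM on HFD (log2FC 0.11 ± 0.42, adjusted p = 0.848).

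**Figure D4:**
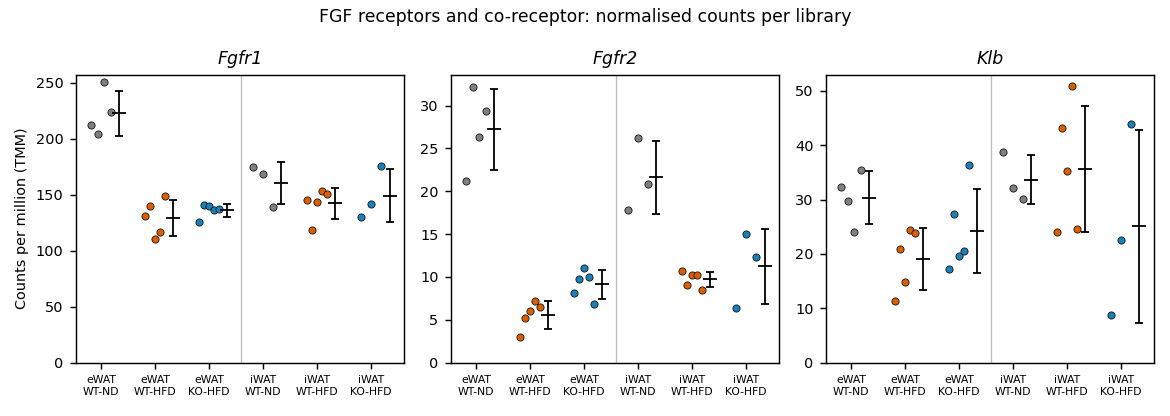
Levels in CPM (linear axes, TMM-normalised) of Fgfr1, Fgfr2 and Klb, one point per library, with the mean ± SD of each group beside the points. In eWAT the grey ND-fed points of Fgfr1 and Fgfr2 lie above all HFD-fed points, and in iWAT only those of Fgfr2 do.

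Fewer FGF genes were called for genotype than for diet. In eWAT of HFD-fed mice, 3 of 9 were called, against 19.9% of the 14936 genes tested: Fgf2 and Fgfr2 were higher in Acod1-/- mice (2 of 9, against 9.13% of all genes) and Fgf7 was lower (1 of 9, against 10.8%). Fgf7 was also the one of the 9 whose groups did not overlap, which held for 7.14% of all genes. It measured 2.22, 1.61, 0.956, 1.58 and 2.73 CPM in Acod1-/- mice, below each of the wild type values given above and within reach of those on ND, and was 2.77-fold lower (log2FC -1.47 ± 0.31, adjusted p = 0.0136). This call held whichever library was left out (log2 fold change -1.67 to -1.31). Macrophage markers moved with it, 9 of 10 being lower in Acod1-/- mice, against 10.8% of all genes (1225 to 4051 CPM summed in wild type, 351 to 1286 CPM in Acod1-/- mice). So did 6 of 10 progenitor markers, against the same 10.8% (1209.5 to 2086 CPM summed in Acod1-/- mice). The part of macrophages and progenitors in the Fgf7 difference was not tested.

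Fgf2 spread over a wide range in Acod1-/- eWAT, 68.6, 19.7, 62.8, 44.9 and 29.4 CPM, and 2 of these 5 libraries lay within the wild type range. The difference was 1.79-fold (log2FC 0.84 ± 0.28, adjusted p = 0.0622). The call was lost in a fit of the compared groups alone (log2FC 0.84 ± 0.31, adjusted p = 0.116). It was also lost in 6 of the 14 fits that left out a library, namely Acod1-/- library 1, 3 or 4 or wild type HFD library 1, 2 or 4. Fgfr2 measured 8.08, 9.79, 11.03, 10.02 and 6.78 CPM, partly above the wild type range and well below the ND-fed mice (1.63-fold higher, log2FC 0.71 ± 0.22, adjusted p = 0.0499). Its call was lost without Acod1-/- library 3 (log2FC 0.63 ± 0.23, adjusted p = 0.116), Acod1-/- library 4 (log2FC 0.68 ± 0.24, adjusted p = 0.102) or wild type HFD library 2 (log2FC 0.68 ± 0.24, adjusted p = 0.101). Fgfr1 was nearly the same in both genotypes, 126, 141, 139, 136 and 137 CPM in Acod1-/- mice, with a 95% interval of the log2 fold change of -0.12 to 0.26. Fgf1, at 93.6, 81.9, 67.02, 103 and 132 CPM in Acod1-/- mice, had an interval of -0.56 to 0.30. Of 10 adipocyte markers 5 were higher in Acod1-/- eWAT and none was lower, against 9.13% and 10.8% of all genes (median log2 fold change 0.54). Their sum ran from 20322 to 44417 CPM in wild type and from 36293 to 48650.1 CPM in Acod1-/- mice. The part of adipocytes in the Fgf2 and Fgfr2 differences was not tested.

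For Fgf13, the eWAT comparison depended on 1 Acod1-/- library. The values were 47.3, 67.2, 15.7, 49.5 and 156 CPM, so that libraries 1 to 4 lay below all 5 wild type libraries and library 5 above them, and no call was made (log2FC -0.66 ± 0.47, adjusted p = 0.376). Without library 5 the difference was called (log2FC -1.25 ± 0.40, adjusted p = 0.0436), in a fit that called 28.3% of all genes (14.8% lower). Among the HFD libraries of the first number range it was also called (log2FC -1.20 ± 0.35, adjusted p = 0.0442), as were 25.9% of all genes. Fgf10 was 86.98, 55.8, 88.1, 56.4 and 44.9 CPM in Acod1-/- eWAT (log2FC 0.50 ± 0.23, adjusted p = 0.164). Without library 5 it was called higher in Acod1-/- mice (log2FC 0.61 ± 0.22, adjusted p = 0.0692), against 13.5% of all genes. Fgf21 showed the same arrangement at low level, 0.374, 0.384, 0.300, 0.429 and 1.37 CPM, with libraries 1 to 4 below all wild type libraries and library 5 among them (log2FC -1.08 ± 0.69, adjusted p = 0.376). Fgf9 at 3.24, 3.11, 2.08, 6.97 and 4.56 CPM (log2FC -0.32 ± 0.34, adjusted p = 0.566) and Klb at 17.2, 27.3, 19.7, 20.4 and 36.3 CPM (log2FC 0.34 ± 0.24, adjusted p = 0.366) overlapped with the wild type mice.

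In iWAT none of the 9 genes was called for genotype by edgeR, as for 0% of all 14801 genes tested, although 2468 of these had an unadjusted p under 0.05 and DESeq2 called 440 higher and 632 lower. Of the 9 genes past the filter, Fgf9 alone had an unadjusted p under 0.05 in edgeR, and it was the 1 gene of the 9 called by DESeq2's Wald test (log2FC -1.91 ± 0.54, adjusted p = 0.0199). Acod1-/- iWAT held 1.37, 0.855 and 2.19 CPM of Fgf9, the highest just above the lowest wild type library, and the edgeR difference was -1.93 ± 0.55 (adjusted p = 0.154). Fgf13 measured 40.2, 24.7 and 131 CPM and Fgf1 46, 31.3 and 81.9 CPM in these mice. In both genes libraries 1 and 2 lay below all 5 wild type libraries and library 3, the one from the second number range and labelled 18 weeks, lay among them. Fgf21 was at 0, 3 and 21 counts in the same order, where a count of 0 allows up to 0.0774 CPM, and its edgeR fit without the filter gave a log2FC of -2.16 ± 0.94 (unadjusted p = 0.0367, adjusted p = 0.401). Without library 3, 4 of the 9 genes were called lower in Acod1-/- iWAT, but so were 8.5% of the 14851 genes tested, with a further 9.43% called higher: Fgf1 (log2FC -1.08 ± 0.31, adjusted p = 0.0576), Fgf9 (log2FC -2.32 ± 0.65, adjusted p = 0.0546), Fgf13 (log2FC -2.05 ± 0.35, adjusted p = 0.0163) and Klb (log2FC -1.18 ± 0.40, adjusted p = 0.0871). That fit rests on 2 Acod1-/- libraries. The other members, all with overlapping groups, had log2 fold changes of 0.19 ± 0.27 for Fgf2, -0.12 ± 0.33 for Fgf7, -0.0428 ± 0.24 for Fgf10, 0.0495 ± 0.14 for Fgfr1 and 0.19 ± 0.24 for Fgfr2. Epithelial markers were uneven in this group, summing to 609 CPM in library 2, where Fgfr2 was also highest (6.37, 15.01 and 12.3 CPM), and to 7.06 CPM and 8.001 CPM in libraries 1 and 3.

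Whether genotype acted differently in the depots was tested in a fit of all libraries, where 0.00665% of 15034 genes were called. None of the 9 FGF genes was called by edgeR or DESeq2, and 2 had an unadjusted p under 0.05 in edgeR, Fgf7 (-1.38 ± 0.45, adjusted p = 0.341) and Fgf9 (1.60 ± 0.63, adjusted p = 0.406). The Fgf7 effect in eWAT was therefore not shown to be absent from iWAT, where Acod1-/- mice measured 5.62, 4.02 and 2.87 CPM. For diet, 6 of the 9 genes were called for a difference between depots, against 29% of all genes. They were Fgf1, Fgf2, Fgf9, Fgf10, Fgfr1 and Fgfr2, all with a negative interaction, the diet effect in eWAT being lower than that in iWAT.

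Differences between depots were called most often on ND. In ND-fed mice 4 of 9 FGF genes were called, against 31.7% of all genes, and all 4 were higher in eWAT. The difference was 16.6-fold for Fgf9 (log2FC 4.06 ± 0.59, adjusted p = 3.96e-05) and 3.62-fold for Fgf1 (log2FC 1.85 ± 0.33, adjusted p = 0.000328). It was smaller for the others, Fgf2 2.07-fold (log2FC 1.05 ± 0.33, adjusted p = 0.0255) and Fgfr1 1.39-fold (log2FC 0.47 ± 0.12, adjusted p = 0.00815). Fgf9 in ND-fed iWAT rests on 11, 11 and 4 counts, so the size of its difference is less certain than its direction. All ND-fed libraries belong to the second number range. The Fgf2 call was lost without ND-fed iWAT library 2 (log2FC 0.91 ± 0.39, adjusted p = 0.127). Mesothelial markers, which belong to the lining of visceral fat, summed to 135 to 203 CPM in ND-fed eWAT and 36.3 to 49.8 CPM in ND-fed iWAT, all 9 being higher in eWAT, and the defining Msln was at most 0.0235 CPM in the latter. With HFD 4 of 9 fell in eWAT, against 26.9% of all genes, and the part of mesothelial cells in the depot difference of Fgf9 was not tested. Among HFD-fed wild type mice 3 of 9 were called, against 18.6% of all genes, and all 3 were lower in eWAT. They were Fgf10 1.89-fold (log2FC -0.92 ± 0.23, adjusted p = 0.0116), Fgfr2 1.74-fold (log2FC -0.80 ± 0.22, adjusted p = 0.0203) and Klb 1.87-fold (log2FC -0.90 ± 0.32, adjusted p = 0.0635). The Klb call was lost in 5 fits that left out 1 library. For Fgf9 and Fgf1 no difference between depots was called on HFD, with 95% intervals of the log2 difference of -0.94 to 0.62 and -0.14 to 0.86. In Acod1-/- mice Fgf7 alone was called, lower in eWAT (2.29-fold, log2FC -1.19 ± 0.33, adjusted p = 0.0680), against 3.81% of all genes, and the call was lost without a filter, in a fit of the compared groups alone and in 5 fits that left out 1 library.

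Of the other 15 ligand genes of the family, 1 passed the filter. This was Fgf11, another intracellular FGF, which fell with HFD from 25.6 ± 2.001 to 8.73 ± 2.02 CPM in wild type eWAT (SD, n = 4 and 5, log2FC -1.55 ± 0.29, adjusted p = 0.00139). It also fell in iWAT, from 20.2 ± 0.782 to 8.32 ± 1.60 CPM (SD, n = 3 and 5, log2FC -1.25 ± 0.18, adjusted p = 0.000424), so that the intracellular Fgf11 and Fgf13 moved in opposite directions with diet. In Acod1-/- eWAT it was 24.5 ± 12.8 CPM, 2.80-fold higher than in wild type mice on HFD (log2FC 1.49 ± 0.28, adjusted p = 0.0110). In iWAT the 17.3 ± 3.14 CPM of Acod1-/- mice gave no call (log2FC 1.03 ± 0.18, adjusted p = 0.133), in a comparison where edgeR called no gene. Each Acod1-/- library there (15.1 to 20.9 CPM) lay above each HFD-fed wild type library (6.18 to 10.01 CPM). Of the 5 other receptors and co-receptors, 4 were tested in eWAT. Lctl, a Klotho-like protein known to help FGFs signal, rose from 20.7 ± 10.2 to 296 ± 70.6 CPM (log2FC 3.84 ± 0.52, adjusted p = 0.000319), and in Acod1-/- eWAT measured 89.8 ± 72.7 CPM (log2FC -1.72 ± 0.44, adjusted p = 0.0251). In iWAT it rose from 19.1 ± 6.69 to 148 ± 47.05 CPM (log2FC 2.98 ± 0.35, adjusted p = 0.000174). Acod1-/- iWAT held 46.8 to 64.0 CPM of Lctl, below the 69.7 to 190.6 CPM of HFD-fed wild type iWAT, with no call in edgeR. Fgfr3 fell in eWAT from 17.3 ± 2.50 to 2.33 ± 1.03 CPM (log2FC -2.89 ± 0.35, adjusted p = 0.000225), and Fgfr4, which spanned 0.0505 to 6.95 CPM on ND, spanned 0 to 0.252 CPM on HFD (log2FC -5.40 ± 1.30, adjusted p = 0.00551). Fgfr4 passed the filter in eWAT through the ND-fed libraries. Fgfrl1, which lacks the kinase domain, was higher in Acod1-/- eWAT (log2FC 0.51 ± 0.17, adjusted p = 0.0625) and rose with HFD in iWAT (log2FC 0.58 ± 0.14, adjusted p = 0.00768).

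The remaining pathway genes were counted in groups. Of 18 tested genes for heparan sulphate and FGF carriers, 5 rose and 3 fell with HFD in eWAT, against 24.8% and 26.9% of all genes, with a median log2 fold change of -0.02 against -0.04 over all genes. In iWAT 12 of 18 rose, against 25.9% of all genes, and none fell, against 24.2% (median 0.70 against 0.00 over all genes). Among them were the glypican Gpc4 (log2FC 1.60 ± 0.25, adjusted p = 0.000678), the chain-building Ext1 (log2FC 0.99 ± 0.17, adjusted p = 0.00116) and the syndecan Sdc2 (log2FC 0.77 ± 0.15, adjusted p = 0.00241). The genes called with the smallest adjusted p in eWAT were Sdc3 (log2FC 1.25 ± 0.28, adjusted p = 0.00364), Sdc2 (log2FC 0.52 ± 0.14, adjusted p = 0.00973) and the sulphotransferase Hs6st1 (log2FC 0.96 ± 0.27, adjusted p = 0.0123). In Acod1-/- eWAT 3 of 18 were lower, Sdc3 (log2FC -1.33 ± 0.26, adjusted p = 0.0115), Hs6st1 (log2FC -1.08 ± 0.25, adjusted p = 0.0180) and Sdc1 (log2FC -1.42 ± 0.33, adjusted p = 0.0182), and 1 was higher, against 10.8% and 9.13% of all genes. The 19 genes of adaptors and the ERK cascade were split in eWAT, 6 rising and 6 falling with HFD, against 24.8% and 26.9% of all genes. Those with the smallest adjusted p were Nras (log2FC 0.82 ± 0.16, adjusted p = 0.00195), Araf (log2FC -0.39 ± 0.08, adjusted p = 0.00319) and the FGF receptor substrate Frs3 (log2FC -1.24 ± 0.27, adjusted p = 0.00348). In iWAT 5 rose and 2 fell, against 25.9% and 24.2% of all genes, with Mapk3 (log2FC 0.82 ± 0.11, adjusted p = 0.000389), Gab1 (log2FC 1.31 ± 0.24, adjusted p = 0.00148) and Frs3 (log2FC -0.94 ± 0.27, adjusted p = 0.0161) called. For genotype in eWAT, Grb2 (log2FC -0.62 ± 0.14, adjusted p = 0.0159) and Nras (log2FC -0.42 ± 0.15, adjusted p = 0.0882) were lower and Ptpn11 (log2FC 0.42 ± 0.13, adjusted p = 0.0536) higher.

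Feedback regulators and targets of FGF and ERK signalling were lower or not called for genotype in eWAT. Of 17 tested there, 8 were lower in Acod1-/- mice, against 10.8% of all genes, none was higher, and the median log2 fold change was -0.68 against 0.04 over all genes. The called genes were Ccnd1, Dusp6, Egr1, Etv1, Etv5, Fos, Fosl1 and Spred1. Of these, Fosl1 passed the filter in eWAT through the HFD-fed wild type libraries. It averaged 0.825 ± 0.377 CPM on ND, 2.91 ± 1.93 CPM in HFD-fed wild type and 0.623 ± 0.492 CPM in Acod1-/- mice (SD, n = 4, 5 and 5). The smallest adjusted p were those of the immediate early gene Egr1 (log2FC -0.89 ± 0.19, adjusted p = 0.0136), the ERK inhibitor Spred1 (log2FC -1.0003 ± 0.21, adjusted p = 0.0136) and Fos (log2FC -2.06 ± 0.52, adjusted p = 0.0234). The count was 5 without Acod1-/- library 3, wild type HFD library 1 or wild type HFD library 4. In those fits 7.2%, 6.74% and 7.55% of all genes were called lower. It was between 6 and 9 without any other library of the fit, where 7.48% to 14.8% of all genes were called lower. Macrophage markers (9 of 10 lower, median -1.79) and progenitor markers (6 of 10 lower, median -0.64) moved with the feedback genes, against 10.8% of all genes lower. The part of these markers' cells in the feedback values was not tested. Many of these genes answer to growth factors and stress of other kinds too. The part of FGF signalling in their values was not tested. The Sprouty genes of the list, also feedback inhibitors, were not called. They had log2FC -0.0450 ± 0.18, adjusted p = 0.895 for Spry1, log2FC -0.0509 ± 0.16, adjusted p = 0.867 for Spry2 and log2FC -0.32 ± 0.23, adjusted p = 0.385 for Spry4. With HFD in wild type eWAT 6 rose and 3 fell (median 0.10), against 24.8% and 26.9% of all genes. Egr1 (log2FC 1.10 ± 0.20, adjusted p = 0.00123) and Spred1 (log2FC 1.05 ± 0.22, adjusted p = 0.00292) rose, and Spry1 fell from 40.3 ± 8.88 to 20.7 ± 4.05 CPM (log2FC -0.96 ± 0.19, adjusted p = 0.00178). In iWAT 8 of 16 rose and 1 fell (median 0.54), against 25.9% and 24.2% of all genes, with Fos (log2FC 2.77 ± 0.53, adjusted p = 0.00207) and Il17rd (log2FC 0.94 ± 0.21, adjusted p = 0.00526) up and Myc (log2FC -1.40 ± 0.29, adjusted p = 0.00335) down. No gene of these lists was called for genotype in iWAT by edgeR. Of the 16 feedback genes there, 6 had an unadjusted p under 0.05, as did 2468 of all 14801 genes. DESeq2 called 4 of the 16 lower, against 4.27% of all genes, and their median was -0.48 against -0.01 over all genes. Without Acod1-/- library 3 of iWAT, edgeR called 4 of 16 feedback genes lower, and 9 of 18 heparan sulphate genes lower and 1 higher, against 8.5% of all genes lower and 9.43% higher in that fit.

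**Figure D5:**
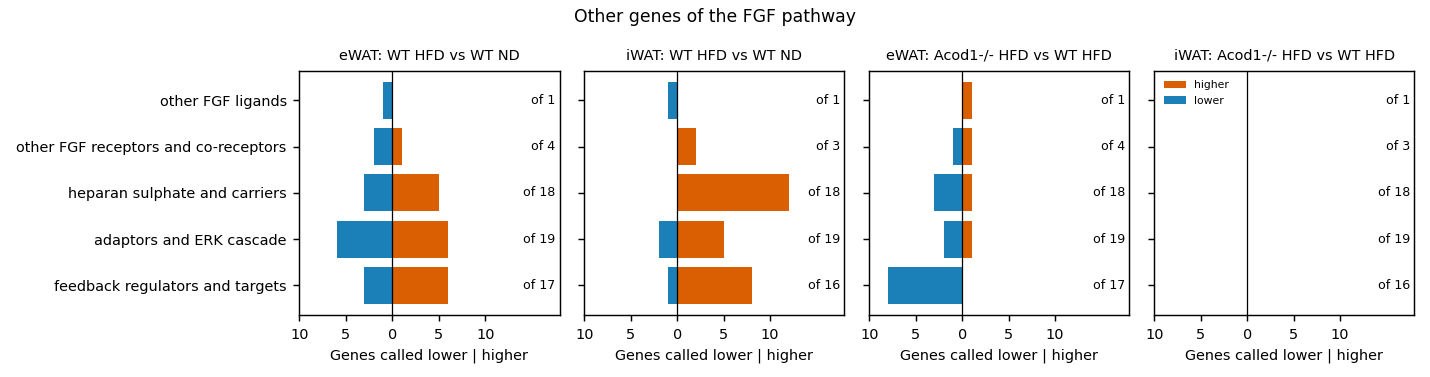
Number of genes called higher (orange, right of 0) and lower (blue, left of 0) in each group of other FGF pathway genes, with the number tested at the right edge. The bar of feedback regulators and targets has only a left part in the comparison of Acod1-/- with wild type eWAT (8 of 17). That of heparan sulphate and carriers has only a right part in iWAT with HFD (12 of 18). Lists with few tested genes also have bars on 1 side only, such as other receptors and co-receptors in iWAT with HFD (2 of 3). The panel of iWAT genotype has no bars.

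Across the 25 libraries, after the mean of each depot was taken away, the genes with the most similar log2 CPM were listed for each of the 9 members, by Pearson's r. The libraries share diet groups, depth and number ranges, and these values are descriptions. For Fgf1 they were Lbp (0.98), Pcbd1 (0.96) and Ppic (0.95), the first encoding the lipopolysaccharide-binding protein. For Fgf13 they were Palld (0.97), Pcolce2 (0.97) and Serpinf1 (0.97), of which Pcolce2 encodes a collagen-processing enhancer and Serpinf1 a secreted protein of adipocytes. Fgf9 was nearest to Cd34 (0.91), Slc16a12 (0.91) and Kcnc2 (0.90), and Cd34 is a marker of progenitor and endothelial cells. Fgf7 ran with Pcolce (0.90), Pdgfra (0.89) and Cd300lb (0.88). Fgf2 was nearest to Map3k7cl (0.91), Ndrg1 (0.91) and Ctif (0.91), and Fgf10 to Pnpla2 (0.84), Evi5l (0.84) and BC067074 (0.81), Pnpla2 encoding the triglyceride lipase ATGL. Fgfr1 was nearest to Spen (0.90), Tead4 (0.88) and Prrc2a (0.87), Fgfr2 to Zbtb39 (0.92), Tmem201 (0.90) and Pnpla3 (0.89) and Klb to Supt6 (0.86), Atg13 (0.85) and AI506816 (0.82). Within the family the highest value was that of Fgf1 with Fgf13 (r = 0.90), followed by Fgf1 with Fgf9 (0.85) and Fgfr1 with Fgfr2 (0.79), and the lowest that of Fgf13 with Fgfr2 (-0.78).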

How the data were processed

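RNA of 25 mouse fat samples was sequenced. The authors prepared directional mRNA libraries, trimmed adapters with cutadapt (reads under 18 bp dropped), removed contaminants, aligned with STAR to GRCm38 and kept unique reads. The submitters' processing notes also name bedtools, and the counter and its strand setting are not given in the sources used here. The deposited tables hold raw counts per gene, which entered all tests, and FPKM values the authors made from these counts and the cDNA length, used here to compare genes. FPKM recomputed from counts and length matched the deposited values within the rounding of their last decimal.

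The main test was edgeR's quasi-likelihood test (edgeR 4.0.16, limma 3.58.1, R 4.3.3) on TMM-normalised counts of genes that averaged 1 CPM or more, Benjamini-Hochberg adjusted over all genes tested and called under 0.1, the level of the study's methods. Comparisons within a depot were fitted with the 3 groups of that depot, and comparisons of depots with all 25 libraries. SE is the log2 fold change divided by the square root of F. Fgf21 was fitted without the filter. Acod1 was compared by an exact permutation test. Alternatives were no filter, 1 CPM in every library, DESeq2 1.42.0 (test and size factors), a threshold of 0.05, the library number range as a term, the first range alone, a replicate block, the compared groups alone and leaving out each library. The test was checked on simulated counts. Tables and plots were made with Python 3.11.15, pandas 2.3.3, numpy 2.4.6, scipy 1.17.1 and matplotlib 3.10.9.

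The members and the 5 pathway and 10 marker lists were chosen with earlier results of these data known. Named were the members, the (at most) 3 called genes per pathway list with the smallest adjusted p in each comparison within a depot, and the 3 genes most like each member. The 8 called feedback genes and the 3 Sprouty genes were named after their values were seen. The marker lists are adipocyte, progenitor, macrophage, endothelial, mesothelial, epididymis, epithelium, skeletal muscle, lymphocyte, and nerve and glia. Spry3 had no matching row. Replicates are samples the labels number separately. The study gives as many mice in each group as there are libraries, so within a depot p-values measure the spread between mice. Whether both depots of a mouse were used is not given. The floor is 3 counts per library and covers counting error only. The same replicate numbers occur in all groups but were not taken to pair the samples.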

Additional observations from a re-analysis of the deposited data

Results flagged for a closer look

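For 8 of 40 combinations of a gene and a group of 4 or more libraries, 1 library stood apart by Dixon's test, where chance gives about 1 in 20. Fgf1 was at 78.5 CPM in ND-fed eWAT library 1, above the rest of its group, and at 65.6 CPM in HFD-fed wild type eWAT library 1, below it. Fgf7 was low in ND-fed eWAT library 3 (1.36 CPM) and high in HFD-fed wild type iWAT library 4 (6.47 CPM). Fgf21 was high in library 5 of both HFD-fed groups of eWAT, at 2.38 CPM in wild type and 1.37 CPM in Acod1-/- mice, and both libraries carry numbers of the second range. Fgfr1 was low in Acod1-/- eWAT library 1 (126 CPM) and in HFD-fed wild type iWAT library 2 (118 CPM).

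The diet effect differed between depots, by the interaction in edgeR's quasi-likelihood test, for 6 genes, all lower in eWAT: Fgf1 (-1.49 on the log2 scale), Fgf2 (-1.46), Fgf9 (-4.22), Fgf10 (-1.01), Fgfr1 (-0.61) and Fgfr2 (-1.13).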

How the results depend on the processing

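The counts of called members in eWAT diet, iWAT diet, depot on ND and on HFD in wild type mice and the interaction with diet stayed within 1.5 times under all alternatives. Other counts moved, and the cause was not tested. For eWAT genotype, leaving out 1 library gave 1 to 5 calls (11.4% to 28.3% of all genes). For iWAT genotype DESeq2's Wald test gave 1 (7.24% of all genes), the first number range alone 3 (14.9%) and leaving out 1 library 0 to 4 (0% to 17.9%). For depot in Acod1-/- mice the count was 0 with 1 CPM in every library, with an adjusted p under 0.05, without a filter or with the compared groups alone, 3 with DESeq2 (5.93% of all genes), 2 in the first range alone (3.73%) or with the range as a term (3.8%), and 0 to 3 leaving out 1 library (1.1% to 6.85%). For the interaction with genotype it was 2 in the first range alone (Fgf7, log2 fold change -1.91, and Fgf9, 2.31), against 3.41% of all genes. Fgf21 in iWAT genotype ran from -4.30 to -1.57 leaving out 1 library, the former without Acod1-/- library 3. The difference in Acod1 between diets in iWAT ran from -0.0783 to 0.00401 CPM.

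Directions turned where log2 fold changes were small and not called. With the range as a term, Fgfr1 in iWAT diet was 0.0741 and Klb for depot in Acod1-/- mice 0.0993, and in the first range alone Fgf7 (0.0866) and Fgfr1 (-0.0390) in iWAT genotype and Klb for depot in Acod1-/- mice (0.43) turned. Fgfr1 in the interaction with genotype was -0.0195 with 1 CPM in every library, -0.00877 with DESeq2's test, -0.00857 with its size factors and -0.00893 without a filter. Correlations between the deviations of same-numbered samples ran from -0.304 to 0.489 over the pairs of groups, not over 0.1 in every pair, so the numbers were not taken to pair the samples. Between eWAT and iWAT they were 0.343, -0.0505, 0.0423, 0.489 and 0.102 in HFD-fed wild type mice. They were 0.229, 0.0374 and 0.133 in ND-fed and 0.0408, 0.0813 and -0.0929 in Acod1-/- mice. Whether both depots of a mouse were used was not settled by these values, and comparisons of depots took libraries as separate mice. Under the replicate block Klb in iWAT diet was -0.0525, Fgf7 and Fgf10 in iWAT genotype 0.00172 and 0.0245, Fgf13 for depot in Acod1-/- mice -0.0891 and Fgfr1 in the interaction with genotype -0.0241, and no count of called members moved by over 1.5 times.

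Leaving out 1 library, values that crossed 0 were Fgf10 (-0.00167 to 0.35) and Klb (-0.0715 to 0.23) in iWAT diet, and Fgf7 (-0.36 to 0.12), Fgf10 (-0.17 to 0.14), Fgfr1 (-0.0633 to 0.17) and Fgfr2 (-0.0545 to 0.50) in iWAT genotype. For depot they were Fgf7 (-0.32 to 0.24), Fgf10 (-0.0610 to 0.28) and Fgf13 (-0.17 to 0.77) on ND, Fgf9 (-0.38 to 0.19) and Fgf21 (-0.0726 to 0.63) in wild type mice on HFD, and Fgf2 (-0.0743 to 0.41), Fgf13 (-0.55 to 1.06) and Klb (-0.47 to 0.63) in Acod1-/- mice. For the interactions they were Fgf7 with diet (-0.0533 to 0.50) and Fgf13 (-0.23 to 1.37) and Fgfr1 (-0.11 to 0.12) with genotype. Of the single-gene values leaving out 1 library, 1503 kept direction and call, 39 turned, 9 gained and 24 lost a call, and under the other alternatives 627 kept both, 14 turned, 11 gained and 9 lost a call. Depth limited Fgf21 and, in ND-fed iWAT, Fgf9.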
